A study of Mus musculus with 4 samples.

Results

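This account follows 45 cell cycle genes, chosen by symbol and grouped by the phase in which their products act, through 4 arrays of mouse embryonic stem cells. All probe sets that the platform annotation assigns to 1 of these symbols were taken, which gave 82 probe sets of 43 genes out of 28898 probe sets of 17097 genes in the whole table. The levels of Cdc25a and Ccnb1 were not analysed here, while their promoter windows were counted. The 43 measured genes comprised 12 of G1 and the G1/S transition, 12 of S phase and 19 of G2 and mitosis. Each gene is given by its brightest probe set on average, and all 43 reached the expression filter of 5.40 on at least 1 array, the middle value of all probe sets with a gene name. Of the 82 probe sets, 68 did so.

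The cells were J1 mouse embryonic stem cells of a line that the labels call iP14, in which doxycycline is given to overexpress PRDM14, a regulator found in pluripotent cells and early germ cells. They were grown without feeder cells in medium with serum and LIF. The scramble group carried the control for the knockdown and no PRDM14 induction, and the labels also describe it as wild type. The second group was scramble with PRDM14. The third was the Tet1/Tet2 knockdown, in which short hairpin RNAs target 2 dioxygenases that oxidise 5-methylcytosine, and the fourth was that knockdown with PRDM14. PRDM14 and doxycycline were given together, so the 2 cannot be told apart. The comparison addresses whether transcription under PRDM14 depends on TET1 and TET2. Whether the cells of a group were 1 clone is not given in the sources used here.

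Each group was measured on 1 array, so no difference has a replicate check, and passing a fold threshold states a size without a test. All values are log2 probe set signals, and 4 values in a row are in the order scramble, scramble with PRDM14, knockdown, knockdown with PRDM14. Tet2 read 8.46, 9.33, 7.503 and 8.15, lower on both knockdown arrays, while its other probe set above the filter read 6.90, 7.11, 6.34 and 6.53. Tet1 was not analysed here. Prdm14 lay below the filter on all 4 arrays, between 4.35 and 4.83, so it checks no label and directions with PRDM14 rest on the labels. Embryonic stem cell markers were high, with 8 of 9 measured, all above the filter and with mean levels from 10.58 to 10.77. Single markers differed more than this mean. With PRDM14 in scramble cells they ran from −0.51 in Esrrb to 0.92 in Fgf4, 5 above 0 and 3 below. Of 9 fibroblast markers 2 reached the filter, of 6 trophectoderm and 6 primitive endoderm markers 3 each, and of 5 measured neural markers 2. The median signal was 5.09 to 5.11 on the 4 arrays. The scramble array lay furthest from the mean of the other 3, with a root mean square distance of 0.281 over all genes above the filter, followed by 0.258 for scramble with PRDM14, 0.199 for the knockdown and 0.205 for the knockdown with PRDM14.

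The cell cycle is driven by cyclin-dependent kinases, which are active only when bound to cyclins. D-type and E-type cyclins act in G1, phosphorylate the retinoblastoma protein and release E2F transcription factors, which switch on genes for DNA replication. Cyclins A and B with Cdk1 then carry cells through G2 into mitosis, where Aurora and Polo kinases, kinesins and the spindle checkpoint act. Mitotic genes are held off early in the cycle by the MuvB complex, which binds a promoter sequence called the cell cycle genes homology region (CHR). Embryonic stem cells divide fast, with a short G1 phase and a cycle that leans little on D-type cyclins.

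The promoters of the 3 phase groups held different shares of the sequences that these regulators are known to bind. RefSeq promoter windows of GRCm38.p6, 250 bases before to 50 bases after a gene start, were at hand for 35 of the 45 genes. Of these, 2 had 2 windows. The 10 genes without a window included Ccnd1, Ccnd2, Ccne2, Myc and Rb1, so the G1 shares below do not describe them. Both strands of each window were searched. The letters searched were TTTGGCGC, TTTCCCGC, TTTCGCGC or TTTGCCGC for an E2F site, TTTGAA or TTCGAA for a CHR element, and CCAAT for the box bound by NF-Y; matches of different motifs were counted separately. A CHR match stood in 13 of 16 windows of G2 and mitotic genes (81.2%), in 2 of 12 of S phase genes (16.7%) and in 1 of 9 of G1 genes (11.1%), against 19.2% of all 32851 windows. The E2F letters stood in 6 of 12 S phase windows (50%), 3 of 9 G1 windows (33.3%) and 1 of 16 G2 and mitotic windows (6.25%), against 2.26% of all windows. The CCAAT box stood in 15 of 16 mitotic, 9 of 12 S phase and 3 of 9 G1 windows, against 37.4% of all. In 13 of 16 mitotic windows CHR and CCAAT occurred together, which 7.52% of all windows showed. A match describes these letters and does not show that a factor binds. Below are 5 windows, 5′ to 3′ on the strand of the gene, with the matches in capitals. Ccnd3, Rrm1 and Cenpa are shown because they had the largest difference of their phase group among genes with a window, and Ccnd3 is represented by the downstream of its 2 windows. Mcm3 and Aurka were chosen after their values and matches were seen, Mcm3 for its E2F letters and Aurka for a CHR element like that of Cenpa.
Ccnd3, chr17:47593217-47593516, plus strand: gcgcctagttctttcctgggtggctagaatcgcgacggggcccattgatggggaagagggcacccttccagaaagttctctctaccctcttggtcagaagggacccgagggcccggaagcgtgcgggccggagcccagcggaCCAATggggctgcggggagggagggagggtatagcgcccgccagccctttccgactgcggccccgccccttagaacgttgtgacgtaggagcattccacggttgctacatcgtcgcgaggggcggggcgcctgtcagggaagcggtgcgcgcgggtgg
Rrm1, chr7:102441445-102441744, plus strand: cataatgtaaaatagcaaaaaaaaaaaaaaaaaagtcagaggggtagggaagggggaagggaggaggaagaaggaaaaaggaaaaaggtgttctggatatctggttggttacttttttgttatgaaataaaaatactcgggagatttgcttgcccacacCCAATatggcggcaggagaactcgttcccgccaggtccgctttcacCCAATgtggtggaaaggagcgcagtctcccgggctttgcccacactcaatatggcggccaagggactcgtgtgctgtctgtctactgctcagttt
Mcm3, chr1:20820263-20820562, minus strand: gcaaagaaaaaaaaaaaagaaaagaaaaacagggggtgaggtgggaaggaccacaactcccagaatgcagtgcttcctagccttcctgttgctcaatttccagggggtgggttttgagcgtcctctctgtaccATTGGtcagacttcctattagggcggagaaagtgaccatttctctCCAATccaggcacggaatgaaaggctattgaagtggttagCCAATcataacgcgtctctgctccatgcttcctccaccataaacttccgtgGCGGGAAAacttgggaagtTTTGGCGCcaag
Cenpa, chr5:30666636-30666935, plus strand: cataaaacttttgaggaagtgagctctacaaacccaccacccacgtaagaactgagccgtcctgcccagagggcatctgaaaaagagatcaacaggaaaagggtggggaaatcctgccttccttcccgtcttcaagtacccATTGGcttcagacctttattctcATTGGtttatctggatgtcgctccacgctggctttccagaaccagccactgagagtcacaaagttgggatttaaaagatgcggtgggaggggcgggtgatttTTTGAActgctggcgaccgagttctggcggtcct
Aurka, chr2:172370521-172370820, minus strand: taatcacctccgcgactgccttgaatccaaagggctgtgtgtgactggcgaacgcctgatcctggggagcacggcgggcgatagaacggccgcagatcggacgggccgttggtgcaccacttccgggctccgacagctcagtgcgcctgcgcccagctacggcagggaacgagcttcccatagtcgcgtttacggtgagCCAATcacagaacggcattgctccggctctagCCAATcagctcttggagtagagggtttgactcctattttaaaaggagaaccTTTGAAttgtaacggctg
In Cenpa and Aurka the CHR match began 17 and 33 bases after the annotated start, with CCAAT boxes at −109 and −86 in Cenpa and at −51 and −19 in Aurka, counted from the start to the first base of each box. The E2F letters of Mcm3 lay 20 and 39 bases after the start, on opposite strands. The printed windows of Ccnd3 and Rrm1 held 1 and 2 CCAAT boxes and no other of these letters, and the upstream window of Ccnd3, not shown, held none of them.

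**Figure D1:**
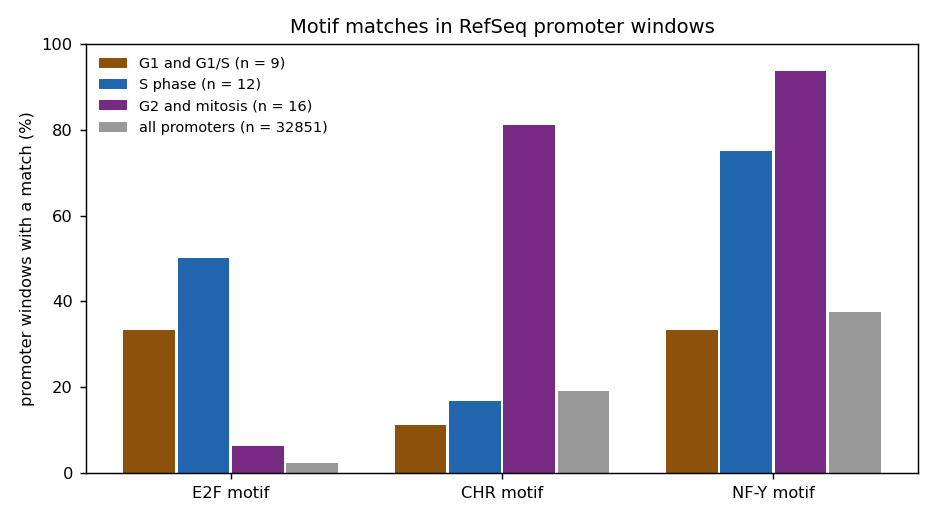
Share of RefSeq promoter windows (y axis, percent) that hold at least 1 match to the E2F letters, the CHR letters or the CCAAT box (labelled NF-Y motif) in genes of G1 and G1/S, S phase, G2 and mitosis, and in all windows. The mitotic bar is highest for CHR, at 81.2% against 19.2% of all windows, and the S phase bar for E2F, at 50% against 2.26%.

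The widest differences between arrays were in a few G1 regulators. The highest and lowest of the 4 arrays were at least 2-fold apart in 3 of 43 genes, against 3.89% of all genes above the filter, and at least 1.5-fold apart in 11 of 43, against 14.7%. All 3 were G1 genes, Ccnd2, Ccne2 and Myc. No S phase or mitotic gene reached 2-fold in any comparison. The median spread over the 4 arrays was 0.52 in G1 genes, 0.27 in S phase genes and 0.41 in mitotic genes, and 0.26 over all genes. The flattest members were Cdk2 (a spread of 0.09), Cdc20, the activator of the anaphase-promoting complex (0.11), Cdt1, a loader of the replicative helicase (0.12), E2f1 (0.13) and thymidylate synthase Tyms (0.14). In bulk RNA, fewer cells in a phase and less RNA per cell cannot be told apart.

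**Figure D2:**
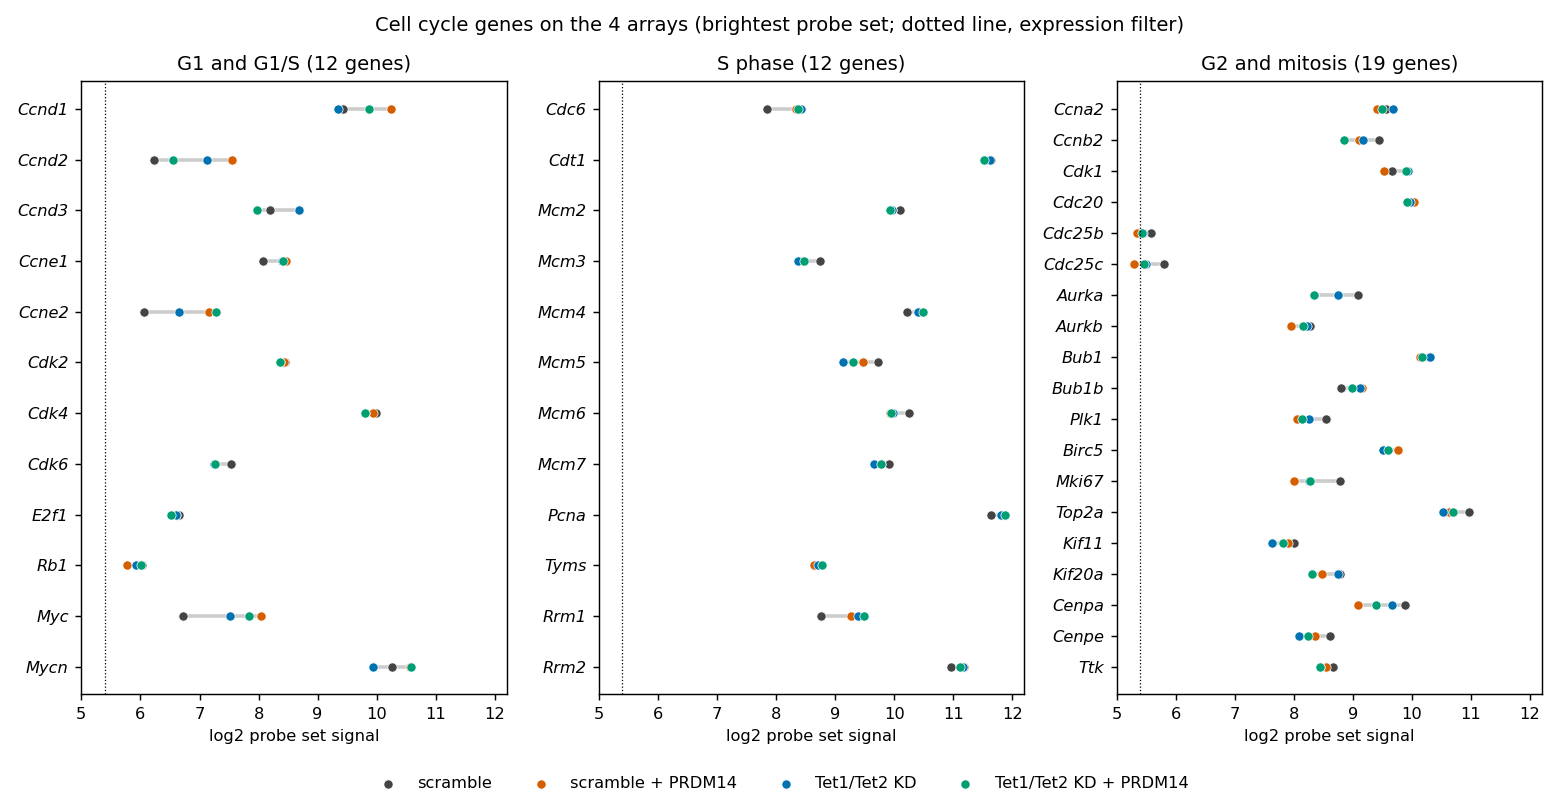
Levels of the 43 measured genes on the 4 arrays (x axis, log2 signal of the brightest probe set; 1 point per array, grey bars from lowest to highest, points can overlap; dotted line, filter at 5.40). Ccnd2, Ccne2 and Myc have the widest bars among G1 genes, while S phase bars are short and many mitotic genes have their highest point on the scramble array.

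Among the regulators of G1, the PRDM14 comparison in scramble cells gave the widest differences of the 43 genes. On the scramble array with PRDM14, 3 of 12 G1 genes were at least 2-fold higher and none was 2-fold lower, against 1.09% and 1% of all genes. They were Myc, a transcription factor of growth and proliferation (2.49-fold), the D-type cyclin Ccnd2 (2.48-fold) and the E-type cyclin Ccne2 (2.15-fold). At 1.5-fold Ccnd1 joined them (1.76-fold), so that 4 of 12 were higher and none lower, where 4.28% of all genes passed. The median of the 12 was 0.35, against 0.002 over all genes, and 7 were above 0, where 50.4% of all genes were. The kinases that these cyclins activate differed little. Cdk2 was at −0.02, Cdk4 at −0.05 and Cdk6 at −0.27. E2f1 was at −0.06 and the retinoblastoma gene Rb1, their substrate, at −0.25. On the same 2 arrays the mean of the 5 measured neural markers read 4.85 and 5.18. Of these only Pax6 (6.26 and 7.12) and Tubb3 (5.94 and 6.81) reached the filter, and Sox1, Nes and Neurog2 were below it on all 4 arrays. The part of these markers in the result was not tested.

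Ccnd2 differed in opposite directions with PRDM14 in the 2 backgrounds. Its brightest probe set read 6.24, 7.55, 7.13 and 6.55, lowest on the scramble array and highest on scramble with PRDM14. With PRDM14 it was 1.31 higher in scramble cells and 0.58 lower (−0.58) in knockdown cells, a dependence on the knockdown of −1.89 as the difference of these 2 differences. The knockdown was 0.89 above scramble without PRDM14 and at −0.9998 with PRDM14, just under 2-fold lower. Of its 6 probe sets 4 reached the filter, and these gave 1.09 to 2.43 with PRDM14 in scramble cells and −1.04 to −0.30 in knockdown cells. The knockdown differences of these 4 were 0.76 to 1.84 without PRDM14 and −1.63 to −0.63 with PRDM14. The dependence of these 4 ranged from −3.46 to −1.38, on the same side in all. The widest came from a probe set that read 5.25, 7.68, 7.09 and 6.05. Of these 4, all but the brightest were below the filter on the scramble array, at 5.25, 5.21 and 4.66. They reached the filter only on other arrays, and the weakest was also below it on the knockdown array with PRDM14 (5.12). The 2 probe sets that never reached the filter lay between 3.34 and 3.60 on every array.

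Ccnd3 had the same order of signs at smaller size. It read 8.19, 8.68, 8.69 and 7.98, lowest on the knockdown array with PRDM14. The PRDM14 difference was 0.49 in scramble cells and −0.71 in knockdown cells, a dependence of −1.20. Its other probe set, at 3.62 to 3.72, was below the filter and flat, and with the mean of both the dependence was −0.60. Higher with PRDM14 in scramble and lower in knockdown cells, each beyond the SD between probe sets and 2-fold apart, was the pattern of 2 of 43 members, Ccnd2 and Ccnd3, against 0.679% of all genes. The neural marker Tubb3 had it too, at 5.94, 6.81, 7.0016 and 6.64, while Pax6 read 6.26, 7.12, 5.36 and 5.69 and the mean of the neural list on the 2 knockdown arrays was 4.85 and 4.89. On those 2 arrays the trophectoderm marker Krt18 read 6.59 and 7.74, and the mean of the 6 trophectoderm markers was 5.23 and 5.49. The part of these markers in the Ccnd2 and Ccnd3 values was not tested. Ccnd1 differed from both in the knockdown cells. It read 9.43, 10.24, 9.34 and 9.87, higher with PRDM14 in both backgrounds, by 0.81 and 0.53. Its other 2 probe sets gave 0.54 and 0.88 in scramble cells and 0.41 and 0.13 in knockdown cells.

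**Figure D3:**
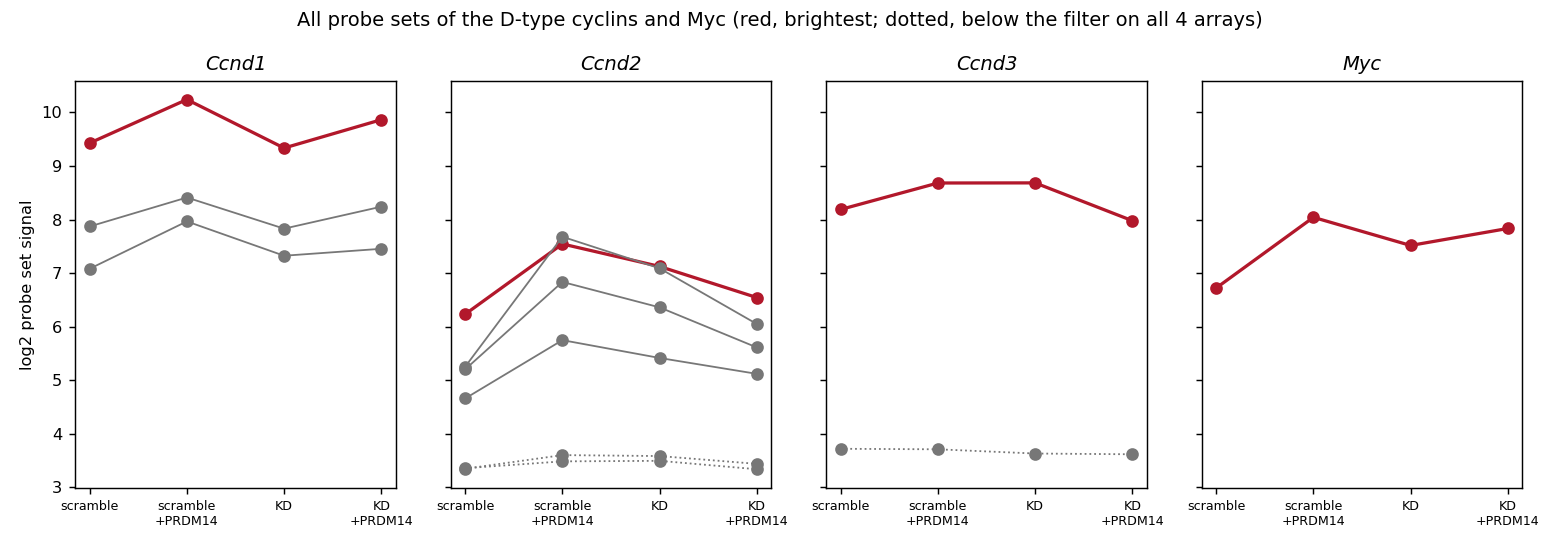
Log2 signal (y axis) of every probe set of Ccnd1, Ccnd2, Ccnd3 and Myc on the 4 arrays (x axis); lines join the values of 1 probe set and stand for no order in time. Ccnd2 is lowest on the scramble array in the 4 probe sets that reach the filter on at least 1 array. Ccnd2 and Ccnd3, unlike Ccnd1, are lower on the knockdown array with PRDM14 (6.55 and 7.98) than on the knockdown array (7.13 and 8.69).

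The E-type cyclins and the Myc genes were higher with PRDM14 or level. Ccne2, which binds Cdk2 at S phase entry, read 6.06, 7.16, 6.66 and 7.27, lowest on the scramble array and highest on both arrays with PRDM14. Its difference was 1.11 in scramble and 0.61 in knockdown cells. Its paralog Ccne1 read 8.07, 8.47, 8.39 and 8.42, with differences of 0.40 and 0.02. Myc read 6.72, 8.04, 7.52 and 7.83 on its single probe set, again lowest on the scramble array. Its PRDM14 differences were 1.32 and 0.32, and its dependence of −1.0015 only just passed 2-fold. Mycn, the Myc relative prominent in embryonic cells, read 10.26, 10.56, 9.93 and 10.58, with PRDM14 differences of 0.30 and 0.65. Another of its probe sets gave −0.04 and 0.57, and one more read 6.91 to 6.93 on all 4 arrays.

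In knockdown cells no member was at least 2-fold different with PRDM14 on its brightest probe set, where 0.63% of all genes were. At 1.5-fold, Mycn and Ccne2 were higher and Ccnd3 lower, 3 of 43 against 2.81% of all genes (1.46% higher and 1.35% lower), and the G1 median was 0.02. Other probe sets of Ccnd2 gave −1.04, past 2-fold lower, and −0.75, past 1.5-fold lower. In the knockdown without PRDM14 no member was called either, against 1.06% of all genes, though other probe sets of Ccnd2 were past 2-fold higher (1.84 and 1.16). There no gene was 1.5-fold lower on its brightest probe set, though other probe sets of Cenpe (−0.77), Mycn (−0.71) and Mcm2 (−0.59) were. Ccnd2, Myc (0.79), Ccne2 (0.60) and the S phase gene Rrm1 (0.63) were at least 1.5-fold higher. This was 4 of 43, against 2.93% of all genes higher and 5.09% in either direction. All 4 read lowest on the scramble array, which this comparison shares with the PRDM14 comparison in scramble cells. Between the 2 arrays with PRDM14 none of the 43 was called, against 1.1% of all genes, though other probe sets of Ccnd2 were past 2-fold lower (−1.63 and −1.22). Ccnd2 and Ccnd3 (−0.70) were at least 1.5-fold lower in the knockdown there, 2 of 43 against 1.95% of all genes lower and 4.34% in either direction. The dependence on the knockdown passed 2-fold in 3 of 43 genes, Ccnd2, Ccnd3 and Myc, against 2.27% of all genes. In all 3 the PRDM14 difference, not the level, was lower in knockdown than in scramble cells. The dependence has no test, and 1.29% of all genes passed in that direction.

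**Figure D4:**
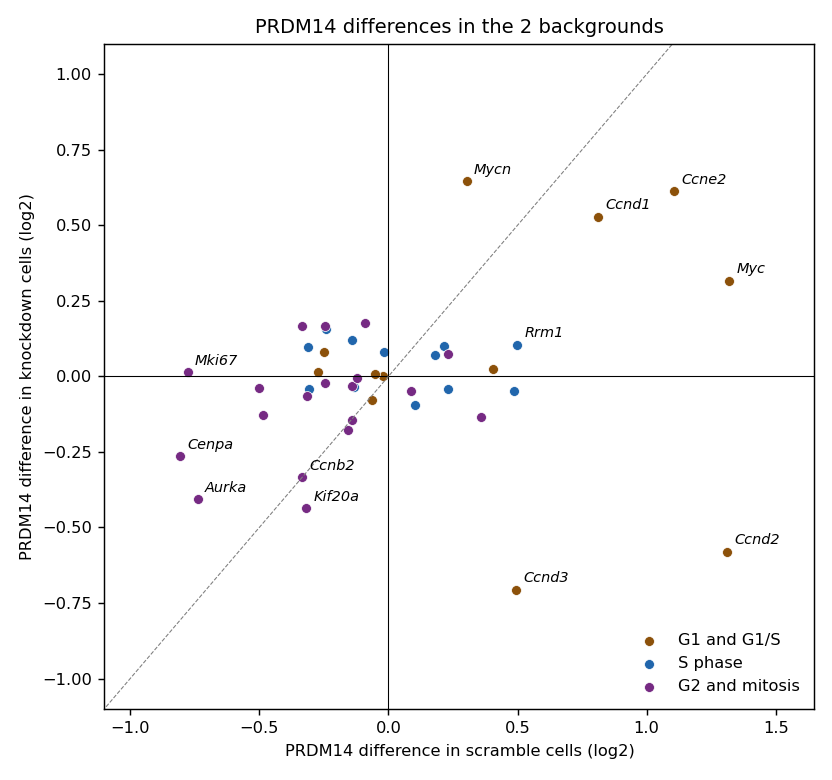
PRDM14 difference of each of the 43 genes in scramble cells (x axis, log2) and in knockdown cells (y axis, log2), coloured by phase group; the dashed line marks equal differences. The 2 axes share no array. Ccnd2 (1.31 and −0.58) and Ccnd3 (0.49 and −0.71) lie in the lower right, Ccne2, Ccnd1 and Myc in the upper right, and most mitotic genes left of 0.

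Genes of S phase stayed close to 0, with no common direction. In scramble cells 6 of 12 were above and 6 below 0 with PRDM14, with a median of 0.04, and in knockdown cells the median was 0.07. The Mcm genes encode the 6 subunits of the replicative helicase. With PRDM14 in scramble cells 5 of 6 were below 0, with a median of −0.19, where 49.5% of all genes were below 0. Mcm3, whose promoter with its E2F letters is printed above, read 8.74, 8.43, 8.37 and 8.46, and its other probe set 7.53, 7.55, 7.31 and 7.45. Mcm5 read 9.72, 9.48, 9.14 and 9.29, highest on the scramble array and lowest on the knockdown array. Its knockdown difference without PRDM14 was −0.58, just under 1.5-fold, but −0.16 on another probe set. Mcm7 read 9.92, 9.78, 9.66 and 9.78. Mcm2, Mcm3, Mcm5, Mcm6 and Mcm7 were all highest on the scramble array, whereas Mcm4 was lowest there, at 10.21 against 10.39 to 10.49.

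The ribonucleotide reductase genes, which make deoxynucleotides, had another order. Rrm1, the large subunit, read 8.76, 9.26, 9.39 and 9.49, and its other probe set 7.99, 8.62, 8.65 and 8.77. Both were lowest on the scramble array, by 0.50 and 0.63 against scramble with PRDM14. Rrm2, the small subunit, read 10.95, 11.19, 11.16 and 11.11, and Cdc6, which helps load the helicase at origins, read 7.84, 8.33, 8.42 and 8.37. The sliding clamp Pcna read 11.64, 11.82, 11.81 and 11.88. These 4 and Mcm4 read lowest on the scramble array, 5 of 12 S phase genes, and 31.1% of all genes above the filter did so. Tyms read 8.66, 8.64, 8.70 and 8.78, and Cdt1 differed by at most 0.12 between any 2 arrays. No S phase gene passed 1.5-fold with PRDM14 in either background on its brightest probe set, while the other probe set of Rrm1 did in scramble cells (0.63).

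Most genes of G2 and mitosis were lower with PRDM14 in scramble cells. Of 19 genes 16 were below 0 (84.2%), against 49.5% of all genes, with a median of −0.25. None reached 2-fold, where 2.09% of all genes did in either direction. The histone H3 variant of centromeres Cenpa (1.75-fold), the proliferation marker Mki67 (1.71-fold) and the spindle kinase Aurka (1.67-fold) were at least 1.5-fold lower, 3 of 19 against 3.91% of all genes. With the 4 G1 genes that were higher, 7 of 43 members passed 1.5-fold in either direction, against 8.19% of all genes. Bub1b, a spindle checkpoint kinase (0.36), the survivin gene Birc5 (0.23) and Cdc20 (0.09) were above 0. The same result can be read as a high scramble array. It was the highest of the 4 for 13 of 19 mitotic genes and for 29.7% of all genes, and the scramble array with PRDM14 was the lowest for 10 of 19, against 26.5%. Whether the standing of the scramble array contributes was not tested.

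Cenpa read 9.89, 9.08, 9.66 and 9.40 on its probe set above the filter. Both arrays with PRDM14 were below both without, with differences of −0.81 and −0.26. Aurka read 9.08, 8.34, 8.75 and 8.35. It too was lower on both arrays with PRDM14, by −0.74 and −0.41. The B-type cyclin Ccnb2 read 9.44, 9.10, 9.17 and 8.84, with a PRDM14 difference of −0.33 in both backgrounds. The kinesin Kif20a, which acts in cytokinesis, read 8.79, 8.47, 8.75 and 8.31, or −0.32 and −0.44. In Cenpa, Aurka, Ccnb2 and Kif20a alike, both values with PRDM14 lay below both without it.

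Other mitotic genes were high on the scramble array alone. Mki67 read 8.79, 8.01, 8.26 and 8.28, a PRDM14 difference of −0.78 in scramble cells and 0.01 in knockdown cells. Its dependence of 0.79 was the highest of the 43 genes. The DNA topoisomerase Top2a read 10.97, 10.63, 10.52 and 10.69, and the kinetochore motor Cenpe 8.61, 8.36, 8.08 and 8.25. Another probe set of Cenpe read 7.81, 7.30, 7.05 and 7.04. Plk1, the Polo kinase of mitotic entry, read 8.54, 8.06, 8.26 and 8.14. Cdk1, the kinase of mitosis, had another order, at 9.67, 9.53, 9.94 and 9.91, higher on both knockdown arrays by 0.27 and 0.38. The probe sets of the spindle motor Kif11 disagreed. The brightest read 7.996, 7.91, 7.63 and 7.81, and the other 5.56, 5.74, 5.98 and 5.52, so that the knockdown difference without PRDM14 was −0.36 on the first and 0.42 on the second. The phosphatases Cdc25b and Cdc25c, activators of Cdk1, lay close to the filter, at 5.34 to 5.59 and 5.30 to 5.80.

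On the brightest probe set only 4 of 19 mitotic genes, Ccnb2, Aurka, Mki67 and Cenpa, spread by at least 1.5-fold. The genes not yet described also spread by less. Cyclin A2 (Ccna2), which acts from S phase to early mitosis, read 9.56, 9.40, 9.67 and 9.50. The spindle checkpoint kinase Bub1 read 10.28, 10.14, 10.31 and 10.17. The brightest probe set of each was slightly lower with PRDM14 in both backgrounds. The other probe set of Ccna2 read 9.41, 8.997, 9.30 and 9.12, lower by a wider margin in scramble cells (−0.41), and that of Bub1, near the filter, gave −0.21 in scramble and 0.15 in knockdown cells. Aurkb, the kinase of the chromosomal passenger complex, read 8.27, 7.96, 8.23 and 8.16, lowest on scramble with PRDM14. Birc5, another subunit of that complex, read 9.53, 9.76, 9.52 and 9.59, highest there. Bub1b read 8.80, 9.16, 9.13 and 8.99, and was the only one of the 19 genes with its lowest value on the scramble array. The checkpoint kinase Ttk read 8.67, 8.55, 8.44 and 8.44.

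In comparisons that leave out the scramble array, the mitotic genes lay nearer 0. With PRDM14 in knockdown cells 14 of 19 were below 0 (73.7%), against 50.4% of all genes, with a median of −0.05 and none past 1.5-fold. Between the 2 arrays with PRDM14 the knockdown had 11 above 0, where 50.8% of all genes were, with a median of 0.02. In the knockdown without PRDM14, which again starts from the scramble array, 14 of 19 were below 0, against 48.3%, with a median of −0.23, or −0.13 with the mean of each gene's probe sets. Counting both PRDM14 comparisons, which share no array, 12 of 19 mitotic genes were below 0 in both and 1 was above 0 in both, where 27.5% and 27.8% of all genes were. Among G1 genes 2 were below and 5 above 0 in both, and among S phase genes 2 and 3 of 12.

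**Figure D5:**
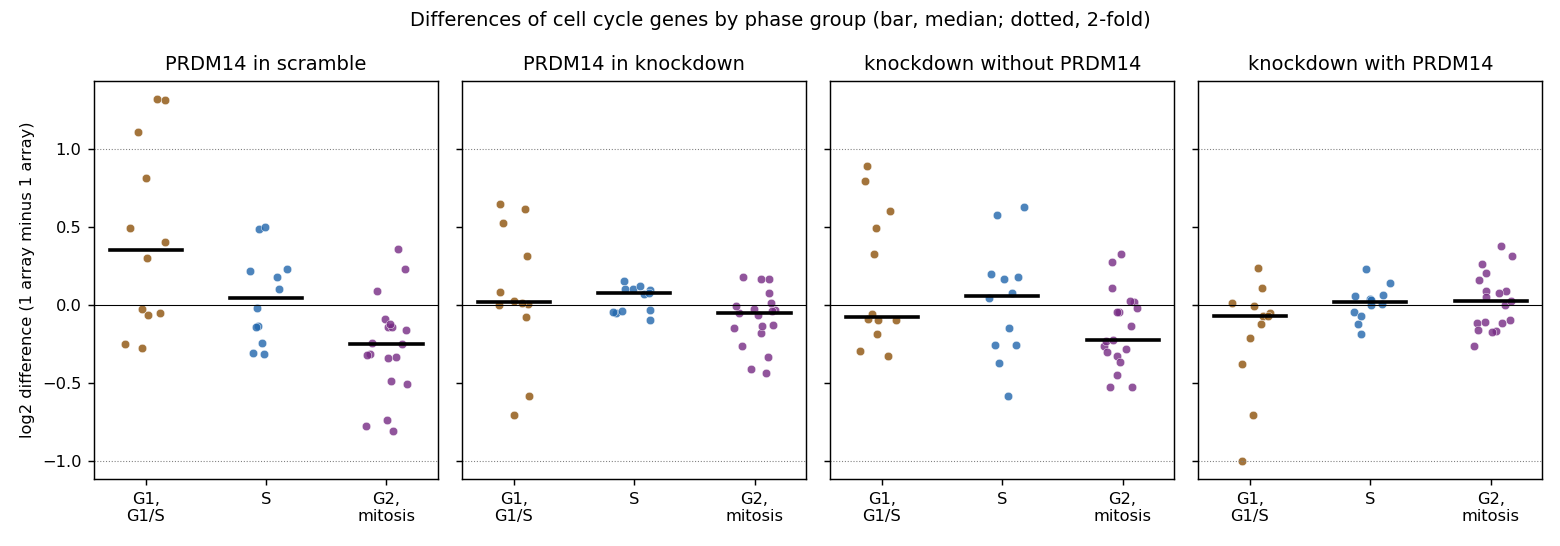
Log2 differences (y axis) of the 43 genes in the 4 comparisons (panels), by phase group; each point is 1 gene, thick bars are medians and dotted lines mark 2-fold. In the PRDM14 comparison in scramble cells the medians step down from 0.35 in G1 genes over 0.04 in S phase genes to −0.25 in mitotic genes, while in the other PRDM14 comparison they lie between −0.05 and 0.07.

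Several probe sets above the filter were at hand for 20 of the 43 genes in the PRDM14 comparison in scramble cells, and in 16 of these genes they all pointed the same way. In knockdown cells, where differences were smaller, this held for 12 of 19 genes. The spread between probe sets of a member was an SD of 0.238 and 0.196 in these comparisons, and most S phase differences lay within it.

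The fit that uses all 4 arrays at once estimates an average effect of each factor in an additive model. Its 1 residual degree of freedom per gene is the dependence on the knockdown itself, so it measures no spread between cultures. In limma with Benjamini-Hochberg adjustment no gene passed 5% for PRDM14, neither among all 10519 genes nor among the 43, and the lowest adjusted p was 0.782 in both. Without adjustment 638 of all genes (6.07%) and 5 of 43 cell cycle genes had a p under 0.05. Of the 5, Ccne2 (an average of 0.86 ± 0.16, standard error), Ccnd1 (0.67 ± 0.13) and Mycn (0.47 ± 0.13) were higher with PRDM14. Aurka (−0.57 ± 0.15) and Kif20a (−0.38 ± 0.12) were lower. Each lay on the same side in both backgrounds. A low p in this fit favours genes whose PRDM14 differences are alike in both backgrounds, so the shared side is no separate evidence. The standard errors rest on that same likeness and on values pooled over genes, not on replicates. For the knockdown no gene passed after adjustment (lowest adjusted p 0.802 among all genes and among the 43). Unadjusted, 604 of all genes (5.74%) and none of the 43 had a p under 0.05.

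Further genes of the cycle were read from lists of related genes. The CDK inhibitors oppose the kinases of G1, and 6 of 7 reached the filter on at least 1 array. Of the 6 compared with PRDM14 in scramble cells 5 were below 0, where 49.5% of all genes were. None passed 2-fold, where 2.09% of all genes did in either direction. Cdkn1a (p21) was at −0.65 and Cdkn1b (p27) at −0.58. Cdkn1b read 7.73, 7.14, 7.06 and 6.84. Cdkn2a read 5.63, 4.94, 4.50 and 4.57, above the filter only on the scramble array, and was the single inhibitor called in any comparison, lower in the knockdown without PRDM14 (−1.13), where 0.444% of all genes were. Cdkn1c (p57) read 6.08, 6.60, 6.23 and 6.72, higher with PRDM14 in both backgrounds, by 0.52 and 0.48. Of 10 E2F and pocket protein genes above the filter none was called in the 4 comparisons, where 0.63% to 2.09% of all genes were. Their widest difference was in Tfdp1, the partner of E2F proteins, which read 10.06, 9.34, 9.90 and 10.11, lowest on scramble with PRDM14. E2f5, a repressor E2F, was the widest between the knockdown and scramble arrays without PRDM14, at 8.16, 8.12, 8.55 and 8.30.

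Most of the further mitotic genes were also lower with PRDM14 in scramble cells. Of 26 above the filter 18 were below 0 with PRDM14 in scramble cells (69.2%, against 49.5% of all genes), with a median of −0.22, and none was 2-fold different, against 2.09%. In knockdown cells 19 were below 0, against 50.4% of all genes. Ndc80, a kinetochore protein, was the widest in the knockdown without PRDM14 (−0.86), at 7.86, 7.30, 6.99 and 6.82, highest on the scramble array. Their CHR share was 21 of 27 promoter windows (77.8%), against 19.2% of all windows. The securin gene Pttg1, whose product restrains separase until anaphase, read 9.32, 10.28, 9.66 and 8.93, and the cytokinesis kinesin Kif23 read 5.82, 6.65, 5.997 and 5.65. Both were highest on scramble with PRDM14 and lowest on the knockdown with PRDM14 and both were called lower between those 2 arrays (−1.34 and −1.005), 2 of 26 against 0.475% of all genes. The other 2 probe sets of Pttg1 above the filter gave −1.65 and −0.26 there. The further replication factors had a median of 0.05 over 31 genes with PRDM14 in scramble cells, with 18 above 0, where 50.4% of all genes were, and none called. The widest was the clamp loader subunit Rfc4, at 8.94, 8.17, 8.04 and 7.95, high on the scramble array alone, as on its second probe set. Cdc7, a kinase that fires origins, read 8.17, 7.99, 8.63 and 8.69, higher on both knockdown arrays. Gins2, a subunit of the active helicase, read 8.33, 8.77, 8.16 and 8.61, higher with PRDM14 in both backgrounds by 0.44 and 0.45, and by 0.60 and 0.50 on its second probe set.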

How the data were processed

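Total RNA was hybridised to 4 Affymetrix arrays, 1 per condition, grouped by sample title. The authors deposited log2 signals, already normalized between arrays: the quartiles of the arrays differ by at most 0.0164. The log base was inferred from their range, 2.78 to 13.2. Per the submitters' processing notes, Affymetrix Expression Console was used. Its version, how probes were summarised and corrected, and a genome build are not given here. The number of arrays limits precision, and no per-sample column was left out.

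Results rest on the 28898 probe sets with 1 gene symbol in the platform annotation, leaving out 551 with several symbols, 15588 without one and 104 controls. Of the 28898, 28689 matched the RefSeq gene table of GRCm38.p6 by Entrez identifier, and 0 symbols changed. A gene counted as called at 2-fold or more between arrays, provided that the filter was reached on the brighter array. The spread between probe sets of 1 gene, a technical yardstick, was an SD of 0.219 and 0.149 for PRDM14 in scramble and knockdown cells, and 0.208 and 0.160 for the knockdown without and with PRDM14. Average effects were fitted with limma 3.58.1 in R 4.3.3 (lmFit, eBayes with trend), over genes above the filter. Scripts were tested on simulated data.

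The members and lists were chosen with earlier results of these data known. Values on every array were given for members called in any comparison or in the dependence, and for members whose probe sets opposed each other. They were also given for the 3 widest members of each phase group in each comparison. Of the further cell cycle lists, they were given for called genes and the widest in each comparison. Other members with values, and Cdkn1a, Foxm1, Mybl2 and the markers, were named after their values were seen. Alternatives were the fold threshold, the filter, raised low values, the choice of probe set, the scaling and the variance trend.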

Additional observations from a re-analysis of the deposited data

Results flagged for a closer look

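In 4 of the cell cycle genes named here, 2 of 43 members and 2 of 103 further genes of the lists, the PRDM14 difference pointed up in scramble cells and down in knockdown cells, each by more than the SD between probe sets and 2-fold apart. Of all genes 69 of 10158 (0.679%) did so. With 1 array per condition none of these contrasts was tested. Ccnd2 had a dependence on the knockdown of −1.89, from 1.31 and −0.58. Pttg1 had −1.69, from 0.96 and −0.73, with −1.97 and −0.15 on its other probe sets above the filter. Ccnd3 had −1.20, from 0.49 and −0.71, and Kif23 had −1.19, from 0.84 and −0.35. The neural marker Tubb3, 1 of 17 markers above the filter, had −1.23, from 0.87 and −0.36. All 5 include the scramble array, which lay furthest from the other 3, and its part in them was not tested.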

How the results depend on the processing

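With 1.5-fold in place of 2-fold, members called numbered 7 in place of 3 (PRDM14 in scramble cells, with 849 in place of 217 of all genes), 3 in place of 0 (PRDM14 in knockdown cells, 290 in place of 65), 4 in place of 0 (knockdown without PRDM14, 527 in place of 110) and 2 in place of 0 (knockdown with PRDM14, 448 in place of 114). At 3-fold they numbered 0 for PRDM14 in scramble cells (52 genes) and 1 for the dependence (49 in place of 239 genes). Ccnd2, at the edge of 2-fold between the 2 arrays with PRDM14, made 1 member called in place of 0 under median centring and under quantile normalization. With the mean of probe sets 43 genes in place of 65 were called for PRDM14 in knockdown cells, and the dependence kept Ccnd2 and Myc of its 3 members. In the additive fit 0 members passed under all alternatives run. Of the 15 phase group medians, 9 of 105 alternatives moved one by more than the SD between probe sets over the square root of the number of genes, a measure chosen after the values were seen. With the mean of probe sets G1 medians went from 0.35 to 0.24 (PRDM14 in scramble cells), from −0.07 to 0.036 (knockdown without PRDM14) and from −0.15 to −0.38 (dependence, the widest shift, 0.23), mitotic medians from −0.23 to −0.13 (knockdown without PRDM14) and from 0.22 to 0.11 (dependence), and the S phase dependence from −0.0067 to −0.11, as it also did without _x_at and _s_at probe sets. Quantile normalization took the mitotic knockdown median without PRDM14 to −0.28, and a filter at the 60th percentile the mitotic dependence to 0.12. In 4 alternatives a median near 0 changed sign. Moving Cdc25a between groups was not run, since its level was not analysed here. The additive fit compares PRDM14 within each background, and no replicate block could be fitted with 1 array per condition. Signal over background was not given, so Cdc25b, Cdc25c and Cdkn2a, near the filter, are the least certain.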

Other observations

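Checkpoint kinases, which hold the cycle when DNA is damaged or not yet replicated, had no member past 2-fold among the 6 measured in the 4 comparisons, where 0.63% to 2.09% of all genes were, so a list this short says little. Atr, the kinase of stalled replication forks, was the widest, at 7.92 without and 7.05 with PRDM14 in scramble cells, and at 7.26 without and 6.92 with PRDM14 in knockdown cells, lowest on the 2 arrays with PRDM14. In the same order, as for all 4 values in a row here, Atm, the kinase of double-strand breaks, read 7.44, 7.22, 7.35 and 7.63.

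Of the repressor complex that binds CHR elements and its activating partners, 6 of 7 genes were measured and none was called, against the same shares of all genes. Foxm1, an activator of mitotic genes, read 6.76, 6.60, 6.72 and 6.55, and its partner Mybl2 read 8.45, 8.57, 8.40 and 8.33. With PRDM14 this probe set of Mybl2 gave 0.13 in scramble and −0.07 in knockdown cells, and its other probe set above the filter −0.13 and 0.10. For the knockdown without PRDM14 they gave −0.05 and −0.47. Lin9, a MuvB subunit, was the widest, at 7.64, 7.0002, 7.41 and 7.67. The histone-binding subunit Rbbp4 read 9.97, 10.43, 10.32 and 10.30, lowest on the scramble array.

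Among 19 measured genes of the ubiquitin ligases that destroy cyclins and CDK inhibitors none was called, which is near those shares. Cdc16, a subunit of the anaphase-promoting complex, was the widest between the 2 arrays with PRDM14 (0.45), at 8.68, 8.46, 8.73 and 8.91. Skp2, which targets p27, read 8.99, 9.32, 9.56 and 9.12, highest on the knockdown array, while another of its probe sets was flat, with a dependence of 0.04. Cdc26, another subunit, read 7.13, 7.87, 7.86 and 8.10, lowest on the scramble array, while its other probe set above the filter gave 0.01 with PRDM14 in scramble cells.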
